A study of Mus musculus with 29 samples.

Results

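The effect of JAK2 V617F on the RNA of megakaryocyte-erythrocyte progenitors (MEPs) with normal Ezh2 was read from 9 mouse libraries. The 4 V617F libraries were titled with SclCre and JAK2V617F and labelled Ezh2 +/+ (1 male, 3 female), and the 5 control libraries were titled with ScleCre alone and labelled Ezh2 +/+ (2 male, 3 female). They were chosen by these titles from the 29 libraries of the series, and no measured value entered the choice. A Cre is named in both groups (SclCre or ScleCre), so V617F is the labelled difference. The series also held 6 V617F Ezh2 -/- libraries (6 female) with 4 Ezh2 -/- libraries without V617F (1 male, 3 female). It held as well 6 V617F Ezh2 +/- libraries (6 female) with 4 Ezh2 +/- libraries without V617F (2 male, 2 female). In these 20 libraries the same comparison was made beside the main one. The age of the mice, the design of the V617F allele (a transgene or a knock-in), the sorting gates and any pooling of animals are not given in the labels. The labels say only "replicate", so p-values measure the spread between these libraries, which may be technical in part.

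MEPs are the bone marrow progenitors that give rise to megakaryocytes, the source of platelets, and to red cells. JAK2 is the kinase that sits on the receptors for erythropoietin and other cytokines, and it passes their signal on mainly by phosphorylating the STAT5 transcription factors, which switch on survival genes and feedback inhibitors. The V617F change leaves the kinase active with little or no cytokine, and it is the common mutation of the myeloproliferative neoplasms, in which red cells, platelets or both are overproduced.

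Each library was made from 230000 sorted cells and held 34849398 to 59448945 counts (median 45160327), and 15250 to 16356 genes were detected. In counts-per-million units (CPM, TMM-scaled), 3 counts in a library are worth 0.0505 to 0.0861, a floor that covers counting error only. Levels are CPM and changes are log2 fold changes of V617F over control ± SE. Each adjusted p is from edgeR (quasi-likelihood), corrected by Benjamini-Hochberg for the 13928 genes tested. The word "higher" or "lower" in a count means an adjusted p under 0.05. On the first 2 principal components of the 9 libraries, which held 50.04% and 25.7% of the variance, V617F replicate 1 and control replicate 5 stood apart, V617F replicate 1 on the first and control replicate 5 on the second, and on the first V617F replicate 3, the male one, lay nearest to the controls.

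The sorted cells carried the defining RNAs of MEPs in both groups. Gata1, the erythroid and megakaryocyte master factor, had 184 to 267 CPM in V617F libraries and 212 to 261 CPM in control libraries. Klf1, the erythroid Krüppel-like factor, had 152 to 315 CPM in V617F libraries and 192 to 282 CPM in control libraries, and Epor, the erythropoietin receptor, had 116 to 169 CPM in V617F libraries and 147 to 177 CPM in control libraries. None of these 3 genes passed the test between the groups. Among the other markers Tal1, a stem and erythroid factor, was higher (log2 0.24 ± 0.06, adjusted p = 0.00852) and Kit, the stem cell factor receptor, lower (log2 -0.29 ± 0.10, adjusted p = 0.0337), and neither call held in every fit that left out 1 library. Itga2b, the platelet integrin subunit CD41, had 295, 134, 68.1 and 154 CPM in V617F libraries 1 to 4 and 37.5, 30.8, 105, 43.6 and 150 CPM in control libraries 1 to 5. Its groups overlapped and it missed the threshold (log2 1.03 ± 0.43, adjusted p = 0.0816). In bulk RNA, here and below, fewer cells of a type and less RNA per cell cannot be told apart. Jak2 itself had 220 to 243 CPM in V617F libraries and 199 to 223 CPM in control libraries (log2 0.13 ± 0.05, adjusted p = 0.0616). The counts do not separate the mutant allele from the normal one, so Jak2 does not check the genotype labels. Ezh2, the histone methyltransferase of the Polycomb complex PRC2, had 244 to 313 CPM in V617F libraries and 269 to 319 CPM in control libraries (log2 -0.06 ± 0.09, adjusted p = 0.613). Of 12 PRC2 subunit genes tested, 0 were higher and 1, Phf1, was lower, beside 9.73% and 13.9% of all tested genes.

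V617F changed 3288 of the 13928 tested genes (23.6%), 1355 higher (9.73%) and 1933 lower (13.9%). At least a 2-fold change was found for 578 of the higher and 568 of the lower genes. The libraries of the groups did not overlap for 2135 genes (15.3%), with V617F above for 5.23% and below for 10.1% of all tested genes. Whichever single V617F or control library of the Ezh2 +/+ comparison was left out, 1734 genes (12.4%) were called, 590 of them higher (4.24%) and 1144 lower (8.21%). For Ezh2 +/+ calls, "whichever library was left out" and "every fit" refer below to these V617F and control libraries only. Fits that left out a library of the other Ezh2 genotypes did not enter these counts. With V617F replicate 1 and control replicate 5 both left out, an alternative added after the values were seen, 2156 genes were called, 758 higher and 1398 lower. In the female libraries alone, 1875 genes were called, 723 higher and 1152 lower. The 1355 higher genes had a median log2 fold change of 0.58 and the 1933 lower genes one of -0.48, beside 0.01 over all tested genes.

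**Figure D1:**
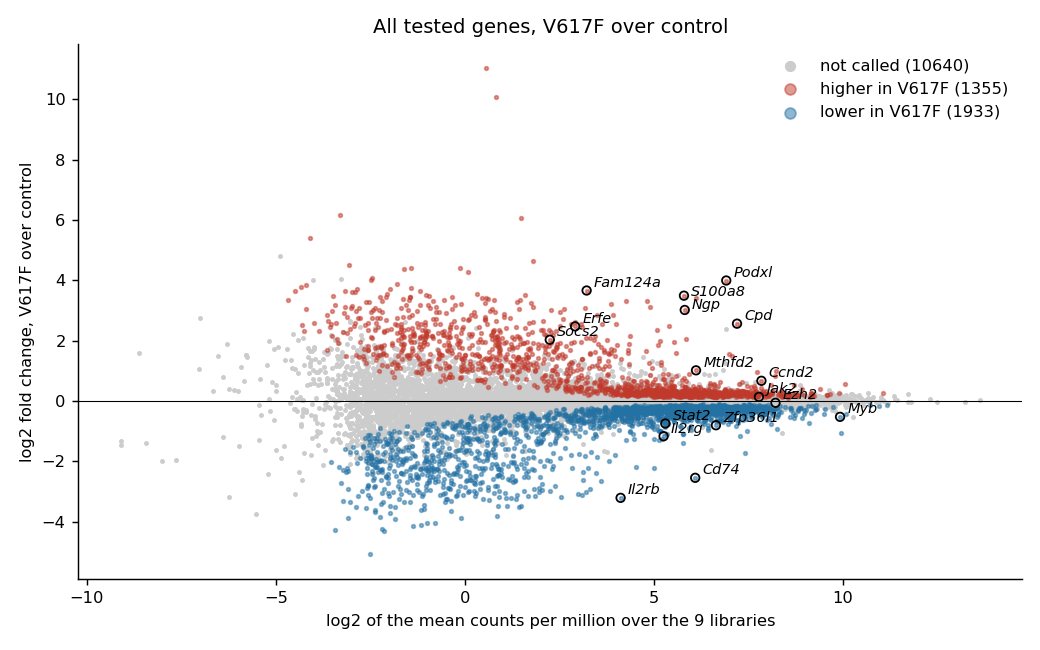
Each point is 1 of 13928 tested genes, with the log2 of its mean CPM over the 9 libraries on the horizontal axis and its log2 fold change, V617F over control, on the vertical axis. Red points (1355) were higher and blue points (1933) lower in V617F at an adjusted p under 0.05, grey points (10640) were not called, and Podxl lies at a log2 fold change of 3.99.

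The gene with the lowest adjusted p and the largest rise among well-expressed genes was Podxl, which encodes podocalyxin, a sialomucin of the CD34 family found on blood progenitors and vessels. It had 212, 218, 322 and 252 CPM in V617F libraries 1 to 4, against 14.7, 15.4, 21, 13.7 and 14.1 CPM in control libraries 1 to 5. Every V617F library lay more than 10 times above every control library (log2 3.99 ± 0.21, adjusted p = 1.57e-12). Cpd, carboxypeptidase D, an enzyme that trims arginine and lysine from the ends of proteins, had 208, 247, 343 and 289 CPM in V617F libraries and 41.4, 42, 58.4, 46.2 and 42.5 CPM in control libraries (log2 2.56 ± 0.19, adjusted p = 1.78e-09). Podxl and Cpd had the same order among the V617F libraries, with replicate 3 highest and replicate 1 lowest. Fam124a had 16.3, 18.5, 22.4 and 19 CPM in V617F libraries and 1.36, 1.41, 1.25, 1.64 and 1.83 CPM in control libraries, again without overlap (log2 3.66 ± 0.31, adjusted p = 3.16e-08). Of the 8 sialomucin genes tested, 2 were higher and 1 lower, beside 9.73% and 13.9% of all tested genes. The second higher one, Emcn, endomucin, an endothelial sialomucin, lost its call in 7 of the 9 fits that left out 1 of these libraries (adjusted p = 0.167 without V617F replicate 1). The lower one was Selplg, the P-selectin ligand of white cells, whose call ended without control replicate 5 (adjusted p = 0.0786).

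The 12 largest rises that met all conditions on level, overlap and stability included, besides these 3, Erfe and C3, the central complement protein. The other 7 were the neutrophil products S100a8, S100a9, Ltf, Camp, Lcn2, Ngp and Chil3, all but Chil3 described below. C3 had 20.8, 15.7, 12.1 and 14.6 CPM in V617F libraries and 2.67, 1.66, 2.26, 1.26 and 4.28 CPM in control libraries (log2 2.54 ± 0.58, adjusted p = 0.00254). The 12 largest falls were Il2rb, Col17a1, Itgax, Ccl5, Tcf7, Cd7, Cd74, Id2, Ctss, Ablim1, H2-Aa and H2-Eb1. Most of these are genes of T and NK cells or of antigen-presenting cells, and Col17a1, a transmembrane collagen of skin and stem cell anchoring, is not. Col17a1 had 1.71, 1.18, 3.11 and 0.228 CPM in V617F libraries and 20.6, 17.4, 14.7, 5.88 and 11.8 CPM in control libraries, so the groups did not overlap (log2 -3.14 ± 0.57, adjusted p = 0.00044).

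**Figure D2:**
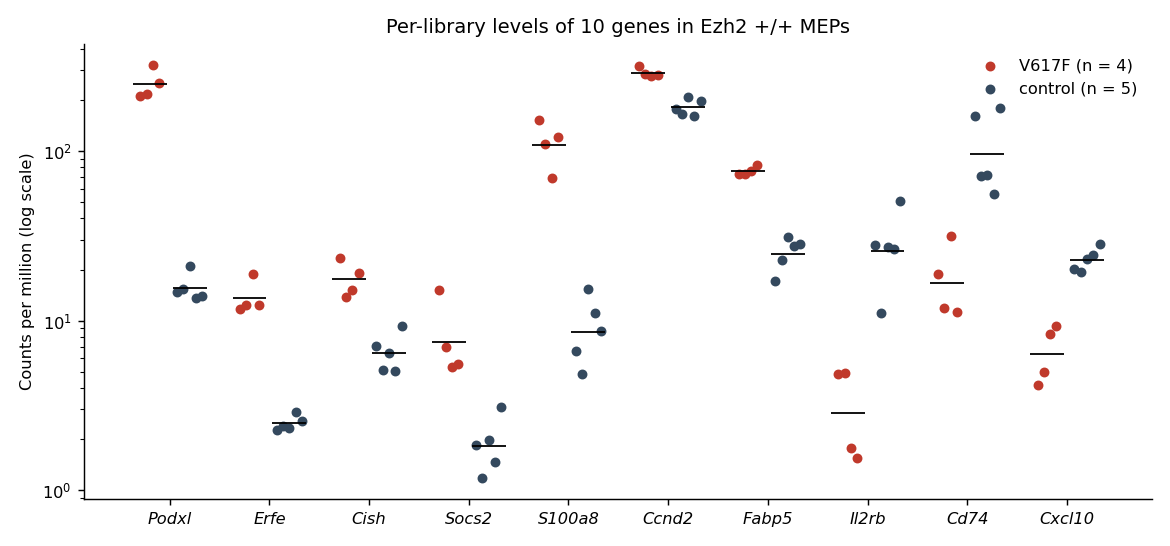
CPM on a log axis for 10 genes, with 1 point per library (V617F red, n = 4; control dark blue, n = 5) and a line at each group's geometric mean. The groups do not overlap for any of the 10 genes; Podxl reaches 212 to 322 CPM in V617F libraries and 13.7 to 21 CPM in control libraries, and Cxcl10 4.2 to 9.26 CPM in V617F libraries and 19.2 to 28.4 CPM in control libraries.

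Known targets and inhibitors of JAK2 and STAT5 moved in both directions. Of the 16 genes of a list of JAK-STAT5 targets and feedback inhibitors, 7 were higher and 4 lower, beside 9.73% and 13.9% of all tested genes, and the list's median log2 fold change was 0.08. Erfe encodes erythroferrone, the hormone that red cell precursors release to free iron for hemoglobin. It had 11.7, 12.4, 18.9 and 12.4 CPM in V617F libraries and 2.28, 2.40, 2.33, 2.90 and 2.58 CPM in control libraries (log2 2.47 ± 0.25, adjusted p = 3.99e-07). Socs2, a suppressor of cytokine signalling, had 15.1, 7.01, 5.33 and 5.54 CPM in V617F libraries and 1.86, 1.18, 1.98, 1.46 and 3.11 CPM in control libraries (log2 2.03 ± 0.29, adjusted p = 3.96e-05). Cish, the cytokine-inducible inhibitor of the same family, had 23.5, 13.8, 15.2 and 19.1 CPM in V617F libraries and 7.13, 5.10, 6.49, 5.03 and 9.32 CPM in control libraries (log2 1.41 ± 0.22, adjusted p = 7.64e-05). Each of these 3 genes was separated between the groups. Osm, oncostatin M, a cytokine whose gene STAT5 induces, had 13.1, 14.1, 15.7 and 11.8 CPM in V617F libraries and 7.05, 6.62, 6.16, 5.12 and 7.5 CPM in control libraries (log2 1.08 ± 0.13, adjusted p = 3.1e-06). Id1, an inhibitor of helix-loop-helix factors, was low, with 3.24, 0.895, 0.631 and 0.890 CPM in V617F libraries and 0.131, 0.181, 0.183, 0.117 and 0.595 CPM in control libraries (log2 2.38 ± 0.49, adjusted p = 0.00129). Erfe, Socs2, Cish, Osm and Id1 kept their call whichever library was left out.

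Of the other called members, all but Bcl6 lost the call in at least 1 fit that left out 1 library. Bcl2l1, which encodes the survival protein Bcl-xL, had 28, 15.8, 10.04 and 14.9 CPM in V617F libraries and 8.53 to 13.9 CPM in control libraries. Its groups overlapped (log2 0.67 ± 0.22, adjusted p = 0.028), and its call ended without V617F replicate 1 (0.38, adjusted p = 0.176), control replicate 3 (adjusted p = 0.0595) or control replicate 4 (adjusted p = 0.0699). Tfrc, the transferrin receptor that takes up iron, had 1087, 1076, 1376 and 1596 CPM in V617F libraries and 694 to 991 CPM in control libraries (log2 0.56 ± 0.19, adjusted p = 0.0289). Its adjusted p was 0.0582 to 0.0874 without control replicate 1 or 5 or V617F replicate 3 or 4. Bcl6, a repressor that STAT5 is known to switch off, was lower, with 1.27, 1.33, 0.740 and 0.821 CPM in V617F libraries and 1.54 to 2.89 CPM in control libraries (log2 -1.18 ± 0.33, adjusted p = 0.0103), though not among female libraries only (adjusted p = 0.0709). The kinase gene Pim1 had 107, 88.5, 89.3 and 111 CPM in V617F libraries and 107 to 232 CPM in control libraries (log2 -0.66 ± 0.18, adjusted p = 0.011). Its adjusted p was 0.0622 without control replicate 5 and 0.0542 without V617F replicate 2. Its relative Pim3 had a log2 fold change of -0.34 ± 0.10 (adjusted p = 0.0152), with adjusted p of 0.0691 without control replicate 5 and 0.0873 without V617F replicate 2. Sh2b3, the adaptor Lnk that restrains JAK2, had a log2 fold change of -0.32 ± 0.09 (adjusted p = 0.0118), which became -0.19 (adjusted p = 0.0772) without V617F replicate 4. Socs1, Socs3, Pim2, Irs2 and Gadd45g were not called, with log2 fold changes between -0.42 and 0.19. Socs3, the inhibitor most often tied to STAT3, had 7.49, 2.78, 2.48 and 4.65 CPM in V617F libraries and 1.81 to 9.12 CPM in control libraries.

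The promoter of Cish is shown because Cish was higher in every V617F library and its RefSeq promoter holds the STAT motif in a pair. The motif TTCNNNGAA, which reads the same on both strands, was searched in 300 bases (250 before the start of transcription and 50 from it on) of the RefSeq table of build GRCm38.p6. It was present for 8.38% of the 10952 tested genes that had an entry. Of the 16 list members 13 had an entry, 4 of them among the higher genes, and the motif was found for 1 of those 4 (Cish) and for 2 of the other 9 (Bcl6 and Socs3). The Cish sequence is chr9:107296409-107296708, + strand, in lower case with the matches in capitals; the first match begins at the start base and the second 11 bases after it.
Cish: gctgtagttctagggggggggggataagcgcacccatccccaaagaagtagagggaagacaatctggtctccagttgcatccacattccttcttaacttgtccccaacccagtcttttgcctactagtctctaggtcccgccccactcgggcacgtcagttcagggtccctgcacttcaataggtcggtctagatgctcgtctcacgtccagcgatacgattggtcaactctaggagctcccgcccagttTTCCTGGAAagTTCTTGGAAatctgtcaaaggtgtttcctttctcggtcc
A match is a description of these letters, and STAT5 binding was not measured here.

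Of 11 genes of the JAK kinases and STAT factors tested, 0 were higher and 4 were lower, with a median log2 fold change of -0.12. With DESeq2, and likewise without control replicate 5, 2 were higher and 4 lower. Stat2, a transcription factor of interferon signalling, had 26.7, 27.6, 32.6 and 26.6 CPM in V617F libraries and 55.2, 48.7, 48, 39.1 and 49.8 CPM in control libraries (log2 -0.75 ± 0.10, adjusted p = 2.19e-05). The others were Tyk2 (-0.27 ± 0.06, adjusted p = 0.00435), Stat5b (-0.21 ± 0.06, adjusted p = 0.00891) and Stat5a (-0.12 ± 0.04, adjusted p = 0.0335), and Stat5a lost its call in 7 of the 9 fits that left out 1 of these libraries (adjusted p = 0.119 without V617F replicate 1). Among 32 cytokine receptor genes tested, 2 were higher and 12 lower, beside 9.73% and 13.9% of all tested genes, with a median log2 fold change of -0.31. Of the 12 lower ones, 9 were called whichever library was left out, beside 8.21% of all tested genes. Il2rg, the common gamma chain, had 19.3, 21.8, 24.2 and 24.7 CPM in V617F libraries and 45.5 to 57 CPM in control libraries (log2 -1.17 ± 0.13, adjusted p = 1.45e-06). Ifngr2, an interferon gamma receptor chain, had 12.4, 13, 13.8 and 16.3 CPM in V617F libraries and 17.8 to 21.6 CPM in control libraries (log2 -0.54 ± 0.08, adjusted p = 5.46e-05).

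Some genes of serine and one-carbon metabolism and of the ATF4 stress response were higher. ATF4 is a transcription factor that cells use under amino acid or protein-folding stress, and it is known to induce enzymes that make serine, glycine and proline. Of 21 genes tested, 9 were higher and 1 lower, beside 9.73% and 13.9% of all tested genes. Of the 9 higher ones, 7 kept the call whichever library was left out, beside 4.24% of all tested genes. The list's mean log2 CPM was 4.42 to 4.92 in V617F libraries and 3.96 to 4.10 in control libraries, without overlap. Mthfd2, the mitochondrial folate enzyme, was the most abundant of the members that rose by 2-fold or more, with 85.9, 94.2, 104 and 98.1 CPM in V617F libraries and 45.1, 54.7, 51, 50.04 and 39 CPM in control libraries (log2 1.01 ± 0.16, adjusted p = 0.000112). Nupr1, a small stress-induced nuclear protein, had 8.22, 3.19, 1.79 and 2.81 CPM in V617F libraries and 0.314, 0.386, 0.330, 0.380 and 0.942 CPM in control libraries (log2 2.88 ± 0.35, adjusted p = 5.57e-06). Trib3, a pseudokinase that feeds back on ATF4, had 5.60, 4.35, 2.76 and 0.616 CPM in V617F libraries and 0.446 to 0.697 CPM in control libraries, so V617F replicate 4 lay within the control range (log2 2.65 ± 0.39, adjusted p = 5.79e-05). Chac1, which degrades glutathione, was near the floor in controls, with 16 counts over the 5 control libraries (1 to 7 each). The 4 V617F libraries held 111 counts (3 to 56 each), so the counts of the groups overlapped. Slc7a11, the cystine carrier, had 5.39, 3.53, 2.92 and 1.71 CPM in V617F libraries and 1.36 to 1.999 CPM in control libraries (log2 1.06 ± 0.24, adjusted p = 0.00289). The serine synthesis enzyme gene Psph had 31.4 to 34.9 CPM in V617F libraries and 24.5 to 27.2 CPM in control libraries (log2 0.37 ± 0.07, adjusted p = 0.000561). Pycr1, of proline synthesis, rose by 0.70 ± 0.18 (adjusted p = 0.00588). Psat1 and Atf5 lost their calls without V617F replicate 1 (adjusted p = 0.0508 for Psat1 and 0.0507 for Atf5), and Atf5 also without V617F replicate 3 (adjusted p = 0.106). Atf4 itself (0.25 ± 0.09, adjusted p = 0.0553) and Asns, asparagine synthetase (0.34 ± 0.16, adjusted p = 0.117), were not called.

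The promoters of 4 of these genes are shown because they hold the letters of the ATF4-type element TGATGNAA, searched on both strands in the same 300-base RefSeq windows. The element was present for 2.73% of the 10952 tested genes with an entry. It was found for 5 of the 9 higher list genes with an entry (Chac1, Trib3, Slc7a11, Nupr1 and Pycr1) and for 2 of the other 10 (Asns and Vldlr). Both motifs were chosen after the values were seen, so these shares are descriptions. The sequences below are chr2:119350992-119351291 (+) for Chac1, chr2:152344011-152344310 (-) for Trib3, chr7:126625421-126625720 (-) for Nupr1 and chr3:50443564-50443863 (-) for Slc7a11, read along the gene's strand with the matches in capitals.
Chac1: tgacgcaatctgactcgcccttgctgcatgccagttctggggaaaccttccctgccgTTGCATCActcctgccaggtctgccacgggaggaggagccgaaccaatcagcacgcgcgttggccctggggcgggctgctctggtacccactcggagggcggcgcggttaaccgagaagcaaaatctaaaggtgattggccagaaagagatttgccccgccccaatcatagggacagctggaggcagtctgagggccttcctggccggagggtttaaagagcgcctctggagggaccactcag
Trib3: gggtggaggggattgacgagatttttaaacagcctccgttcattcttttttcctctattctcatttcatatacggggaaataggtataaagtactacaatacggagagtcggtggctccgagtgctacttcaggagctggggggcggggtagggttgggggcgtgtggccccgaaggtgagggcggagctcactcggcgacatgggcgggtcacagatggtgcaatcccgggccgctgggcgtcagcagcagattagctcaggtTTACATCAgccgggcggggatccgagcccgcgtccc
Nupr1: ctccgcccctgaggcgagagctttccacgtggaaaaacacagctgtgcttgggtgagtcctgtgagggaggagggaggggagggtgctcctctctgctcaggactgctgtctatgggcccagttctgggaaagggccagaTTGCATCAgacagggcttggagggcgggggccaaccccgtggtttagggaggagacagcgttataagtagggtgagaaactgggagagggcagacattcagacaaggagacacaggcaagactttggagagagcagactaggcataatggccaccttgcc
Slc7a11: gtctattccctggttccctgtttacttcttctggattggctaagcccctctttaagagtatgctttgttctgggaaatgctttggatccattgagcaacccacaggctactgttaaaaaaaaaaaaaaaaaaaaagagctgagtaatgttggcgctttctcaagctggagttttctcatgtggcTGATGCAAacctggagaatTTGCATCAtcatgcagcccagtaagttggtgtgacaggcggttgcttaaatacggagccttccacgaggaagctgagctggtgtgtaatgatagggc
Slc7a11 holds 2 matches, on opposite strands, beginning 66 and 47 bases before the start, and the other 3 genes hold 1 each.

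**Figure D3:**
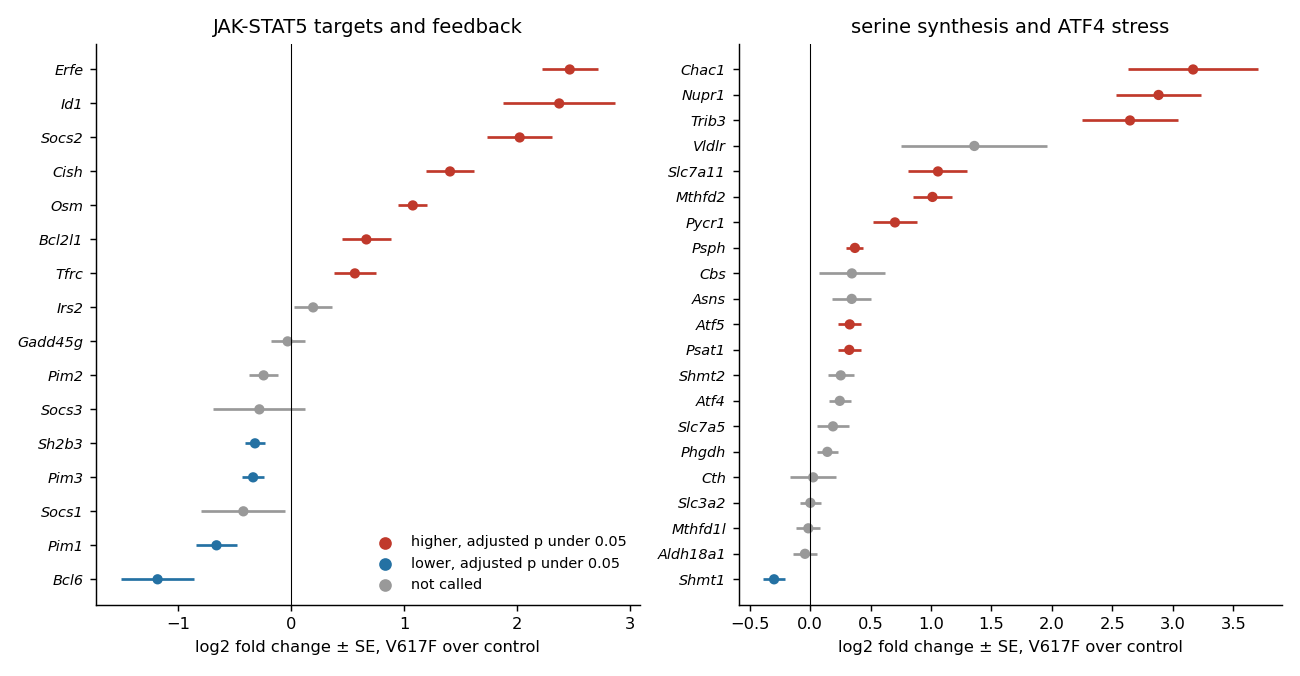
Log2 fold change ± SE, V617F over control (n = 4 and 5), for the 16 tested JAK-STAT5 targets and feedback genes on the left and the 21 tested serine synthesis and ATF4 stress genes on the right, sorted by size. Red members passed the threshold as higher (7 and 9), blue ones as lower (4 and 1), and grey ones did not pass.

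Of 27 genes of glycolysis and the pentose phosphate path tested, 6 were higher and 0 lower, beside 9.73% and 13.9% of all tested genes, and 21 were not called, with a median log2 fold change of 0.12. Eno1, enolase, had 187 to 203 CPM in V617F libraries and 147 to 172 CPM in control libraries (log2 0.28 ± 0.05, adjusted p = 0.000539), and Gapdh had 368 to 379 CPM in V617F libraries and 296 to 344 CPM in control libraries (0.25 ± 0.06, adjusted p = 0.00598). Pfkp, a phosphofructokinase subunit (0.44 ± 0.10, adjusted p = 0.00219), and Slc2a3, a glucose carrier (0.25 ± 0.06, adjusted p = 0.00466), were also called whichever library was left out, which was not so for Ldhb (adjusted p = 0.0944 without V617F replicate 1) and Pdk1 (adjusted p = 0.104 without V617F replicate 1 and 0.0566 without control replicate 5).

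Few cell cycle genes differed. Ccnd2, cyclin D2, which drives entry into the cycle, was the clearest, with 316, 282, 276 and 282 CPM in V617F libraries and 177, 166, 207, 162 and 196 CPM in control libraries (log2 0.66 ± 0.08, adjusted p = 2.53e-06). Of 21 genes of G1 entry and CDK inhibitors, 3 were higher and 1 lower, of 32 DNA replication genes 1 was higher and 1 lower, and of 28 mitosis genes 2 were higher and 0 lower. Over all tested genes 9.73% were higher and 13.9% lower. The calls of Rfc4, Aurka and Top2a, the 3 replication and mitosis genes called higher, each ended in at least 5 of the 9 fits that left out 1 library, with adjusted p of 0.0644 for Rfc4, 0.0859 for Aurka and 0.0781 for Top2a without control replicate 5, while the lower Pold1, a DNA polymerase subunit, kept its call (-0.31 ± 0.06, adjusted p = 0.000727). E2f2, a cell cycle transcription factor, fell by 0.53 on the log2 scale (SE 0.13, adjusted p = 0.00565). Cdkn2a, the p16 and p19 locus, rested on V617F replicate 1, which held 40 of the 44 counts in the 4 V617F libraries against 4 counts in the 5 controls; without it the log2 fold change was 0.73 (adjusted p = 0.649).

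Of 27 p53 target and Bcl2 family genes, 2 were higher and 6 lower, beside 9.73% and 13.9% of all tested genes. Pmaip1, the death-promoting Noxa, had 3.97, 3.70, 4.29 and 6.34 CPM in V617F libraries and 18.7, 9.14, 12.9, 10.4 and 21.5 CPM in control libraries (log2 -1.69 ± 0.26, adjusted p = 9.74e-05). Bcl2l11, the death-promoting Bim, had 33.0 to 52.4 CPM in V617F libraries and 56.8 to 69.6 CPM in control libraries (log2 -0.53 ± 0.12, adjusted p = 0.00225). Neither gene overlapped between the groups. Among 15 genes of MAPK feedback, Spry1 was higher and Spry2 (-0.70 ± 0.18, adjusted p = 0.00624) and Spry4 (-0.82 ± 0.18, adjusted p = 0.00206), both inhibitors of growth factor signalling, were lower. Spry1 lost its call in 4 of the 9 fits that left out 1 of these libraries, with an adjusted p of 0.176 without V617F replicate 1. Of 25 immediate early and stress genes, 3 (Egr1, Egr2 and Egr3) were higher and 7 lower. Without V617F replicate 1, 0 were higher and 5 lower. The 7 lower became 1 without control replicate 1 or 5, 0, 3 and 2 without V617F replicates 2, 3 and 4, and 0 without both control replicates 3 and 5, and no member of the list was called in every such fit.

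Megakaryocyte and platelet genes were higher on average in V617F libraries, with a wide spread. Of 18 platelet receptor and adhesion genes 7 were higher and 2 lower (median log2 fold change 0.95), of 21 granule and cytoskeleton genes 7 were higher and 1 lower (0.95), and of 21 platelet signalling genes 12 were higher and 0 lower (0.83). Over all tested genes 9.73% were higher and 13.9% lower. The mean log2 CPM of the granule list was 5.47, 4.72, 4.05 and 4.68 in V617F libraries 1 to 4 and 3.33, 3.07, 4.15, 3.36 and 4.57 in control libraries 1 to 5, so the groups overlapped, with V617F replicate 1 highest. Vwf, the von Willebrand factor that tethers platelets, had 392.1, 166, 85.5 and 171 CPM in V617F libraries and 41.6, 31.9, 98.6, 38.7 and 103 CPM in control libraries (log2 1.57 ± 0.41, adjusted p = 0.00685). Mmrn1, a granule protein that carries factor V, had 173, 64.7, 22.9 and 56.2 CPM in V617F libraries and 6.03, 3.74, 18.9, 7.49 and 28.4 CPM in control libraries (log2 2.48 ± 0.55, adjusted p = 0.00231). For both genes V617F replicate 3 lay among the controls. Clu, clusterin (2.85 ± 0.53, adjusted p = 0.000506), Pf4, platelet factor 4 (2.05 ± 0.48, adjusted p = 0.00333), and F5, coagulation factor V (1.76 ± 0.42, adjusted p = 0.00413), kept their calls whichever library was left out, as did Vwf and Mmrn1. Without V617F replicate 1 the higher members were 1 of the receptor list (Cd63), 6 of the granule list and 5 of the signalling list. With control replicate 5 left out too they were 4, 6 and 7. 

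Stem and multipotent progenitor genes moved with the same libraries. Of 25 tested, 9 were higher and 2 lower (median log2 fold change 0.69), beside 9.73% and 13.9% of all tested genes. Without V617F replicate 1 only 2 were higher and 1 lower. The mean log2 CPM of the list was 4.89, 3.999, 2.85 and 3.32 in V617F libraries and 2.69, 2.40, 3.18, 2.61 and 3.88 in control libraries, again with V617F replicate 3 within the controls and control replicate 5 the highest control. Mecom, the stem cell factor Evi1, had 32.8, 11.4, 3.37 and 5.86 CPM in V617F libraries and 1.15, 0.703, 2.77, 1.08 and 3.88 CPM in control libraries (log2 2.54 ± 0.54, adjusted p = 0.00145). Cd34, which marks multipotent cells, was not called, with 22.9, 14.2, 6.73 and 7.85 CPM in V617F libraries and 1.28, 1.16, 3.59, 2.02 and 42.7 CPM in control libraries. The part of these genes in the platelet gene result was not tested.

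Of 29 globin and erythroid membrane genes 2 were higher and 3 lower, and of 29 heme synthesis and iron genes 2 were higher and 3 lower. In each list 17.2% of the genes were called, beside 23.6% of all tested genes, so these counts do not set red cell genes apart. Erfe and Plek2, red cell precursor genes described in other paragraphs, were higher. Kel, the Kell blood group protein of the red cell membrane, had 87.3, 122, 175 and 147 CPM in V617F libraries and 235, 217, 205, 192 and 166 CPM in control libraries (log2 -0.59 ± 0.16, adjusted p = 0.00925). The alpha globin genes Hba-a1 and Hba-a2 carry identical counts, which cannot be told apart, and had 45.2, 38.7, 25.9 and 32.5 CPM in V617F libraries and 42.4, 76.2, 79.8, 45.3 and 108 CPM in control libraries. That call (log2 -1.09 ± 0.34, adjusted p = 0.0198) ended without control replicate 2 or 5 or V617F replicate 2 or 4 (adjusted p = 0.05005 to 0.0645). Hmox1, heme oxygenase, had 6.04, 3.41, 2.48 and 2.53 CPM in V617F libraries and 18.7, 14.2, 10.7, 9.69 and 32.3 CPM in control libraries (log2 -2.41 ± 0.63, adjusted p = 0.00722). It is also abundant in macrophages, and macrophage genes were lower too, as given below. The part of macrophages in the fall of Hmox1 was not tested. Among 24 erythroid and megakaryocyte transcription factors 3 were higher and 3 lower. Myb, the progenitor factor whose low level is known to favour megakaryocytes, had 661, 763, 842 and 836 CPM in V617F libraries and 1189, 1065, 1136, 1088 and 1138 CPM in control libraries (log2 -0.53 ± 0.08, adjusted p = 9.7e-05). Ldb1, the adaptor of the Gata1 and Tal1 complex, fell by 0.30 on the log2 scale (SE 0.07, adjusted p = 0.00297).

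Neutrophil granule genes formed the largest group among the strongest rises. Of 23 genes of secondary granules and late neutrophils 18 were higher and 0 lower, beside 9.73% and 13.9% of all tested genes. The list's median log2 fold change was 2.83. Of the 18 higher ones, 17 were called whichever library was left out, beside 4.24% of all tested genes. The summed level of the list was 914, 638, 409 and 699.7 CPM in V617F libraries 1 to 4 and 74.1, 51.2, 117, 81.5 and 109 CPM in control libraries 1 to 5. S100a8, a subunit of the calprotectin that neutrophils hold in their cytosol, had 153, 109, 69.2 and 121 CPM in V617F libraries and 6.65, 4.83, 15.3, 11 and 8.71 CPM in control libraries (log2 3.49 ± 0.52, adjusted p = 6.42e-05). Its partner S100a9 had 187, 137, 86.0 and 156 CPM in V617F libraries and 7.12 to 20.04 CPM in control libraries (log2 3.41 ± 0.51, adjusted p = 6.36e-05). The granule proteins Ltf, lactoferrin, and Camp, cathelicidin, had equal log2 fold changes of 3.32, and Lcn2, lipocalin 2, and Ngp, neutrophilic granule protein, had log2 fold changes of 3.20 and 3.01. All 6 of these genes had their lowest V617F value in replicate 3 and their highest in replicate 1, and none overlapped the controls. Cebpe, the factor of late granulocytes, had 3.63, 2.39, 1.24 and 1.44 CPM in V617F libraries and 0.0878 to 0.479 CPM in control libraries (log2 2.83 ± 0.74, adjusted p = 0.00688).

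Primary granule genes, which mark earlier granulocyte progenitors, were less even. Of 9 tested 6 were higher and 0 lower (median log2 fold change 2.38), beside 9.73% and 13.9% of all tested genes. Among female libraries only, 0 of them were called. Elane, neutrophil elastase, had 88.3, 67.6, 54.2 and 24.7 CPM in V617F libraries and 3.75, 3.63, 4.62, 2.02 and 19.4 CPM in control libraries (log2 3.11 ± 0.73, adjusted p = 0.00327). Mpo, myeloperoxidase, had 292, 239, 223 and 78.3 CPM in V617F libraries and 12.4, 12.5, 15.9, 9.16 and 205 CPM in control libraries, where replicate 5 lay among the V617F libraries, and it missed the threshold (log2 2.38 ± 0.90, adjusted p = 0.0541). The summed level of the primary granule list was 617.1, 474, 397 and 184 CPM in V617F libraries and 34.8, 34.3, 48.1, 33.0 and 343 CPM in control libraries. Whether a share of granulocyte RNA in the sorted cells differs between the groups was not tested, and in bulk RNA it cannot be told apart from expression within MEPs. Levels per length give a sense of scale: S100a8 averaged 288 RPKM (CPM per kilobase of gene length) in V617F libraries and 23.7 RPKM in control libraries, beside 261 RPKM in V617F libraries and 178 RPKM in control libraries for Tfrc.

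Genes of T and NK cells were mostly lower. Of 30 tested, 0 were higher and 22 lower, beside 9.73% and 13.9% of all tested genes, with a median log2 fold change of -2.50. Of the 22 lower ones, 20 were called whichever library was left out, beside 8.21% of all tested genes. The summed level was 118, 84.5, 54.2 and 64.1 CPM in V617F libraries and 159.7, 96.9, 172, 169.5 and 318 CPM in control libraries. Il2rb, the shared receptor chain for interleukins 2 and 15, had 4.85, 4.88, 1.79 and 1.55 CPM in V617F libraries and 27.8, 11, 27.3, 26.4 and 50.5 CPM in control libraries (log2 -3.22 ± 0.53, adjusted p = 0.000186). Eomes, a T-box factor of NK and memory T cells, had 0.389, 0.363, 0.109 and 0.0684 CPM in V617F libraries and 3.43, 0.817, 2.71, 2.98 and 5.22 CPM in control libraries (log2 -3.81 ± 0.65, adjusted p = 0.000214). Cd3e, a chain of the T cell receptor complex, had 0.518, 0.895, 0.218 and 0.251 CPM in V617F libraries and 0.996, 1.57, 2.55, 2.63 and 5.41 CPM in control libraries (log2 -2.59 ± 0.46, adjusted p = 0.00035). Tcf7, a Wnt pathway factor of T cells, and Cd7, a surface protein of T and NK cells, had log2 fold changes of -2.91 ± 0.51 and -2.66 ± 0.44. No group overlapped for Il2rb, Eomes, Cd3e, Tcf7 or Cd7, and control replicate 5 was the highest library for each of them.

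Many antigen presentation and macrophage genes were lower as well. Of 10 MHC class II genes 0 were higher and 6 lower, all 6 in every fit that left out 1 library. The shares over all tested genes, to set beside this list and the others of this paragraph, were 9.73% higher and 13.9% lower. Cd74, the invariant chain that guides class II molecules, had 18.8, 11.9, 31.5 and 11.2 CPM in V617F libraries and 161, 71.0, 72.3, 56.0 and 179 CPM in control libraries (log2 -2.55 ± 0.54, adjusted p = 0.00143). Ciita, the master factor of these genes, had 2.18, 1.11, 2.57 and 1.07 CPM in V617F libraries and 12.6, 5.06, 5.56, 4.21 and 11.1 CPM in control libraries (log2 -2.15 ± 0.50, adjusted p = 0.0032). Of 26 monocyte, macrophage and dendritic cell genes 1 was higher and 16 lower, and without control replicate 5 these were 1 and 9. Csf1r, the macrophage growth factor receptor, had 3.60, 2.35, 2.02 and 1.76 CPM in V617F libraries and 14.7, 12.2, 8.99, 6.61 and 25.8 CPM in control libraries (log2 -2.61 ± 0.68, adjusted p = 0.00721). The member that was higher, Ly6c2, is carried by monocytes and by granulocyte progenitors (log2 2.47 ± 0.65, adjusted p = 0.00729). Of 18 B lineage genes 0 were higher and 5 lower, with a summed level of 4.86 to 12.1 CPM in V617F libraries and 8.17 to 33.9 CPM in control libraries. No list member, tested or too low to test, was at 0 in all 9 libraries. Whether these falls follow a lower share of lymphoid and antigen-presenting cells in the sort was not tested. Of 14 mast cell, basophil and eosinophil genes 1 was higher, the cytokine gene Il4, with 1.02 to 1.69 CPM in V617F libraries and 0.116 to 0.497 CPM in control libraries (log2 2.23 ± 0.41, adjusted p = 0.000418), and 1 was lower. Of 8 stromal and endothelial genes 3 were higher, all 3 lost without V617F replicate 1, and 1 was lower, Plvap (-0.62 ± 0.15, adjusted p = 0.00487).

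**Figure D4:**
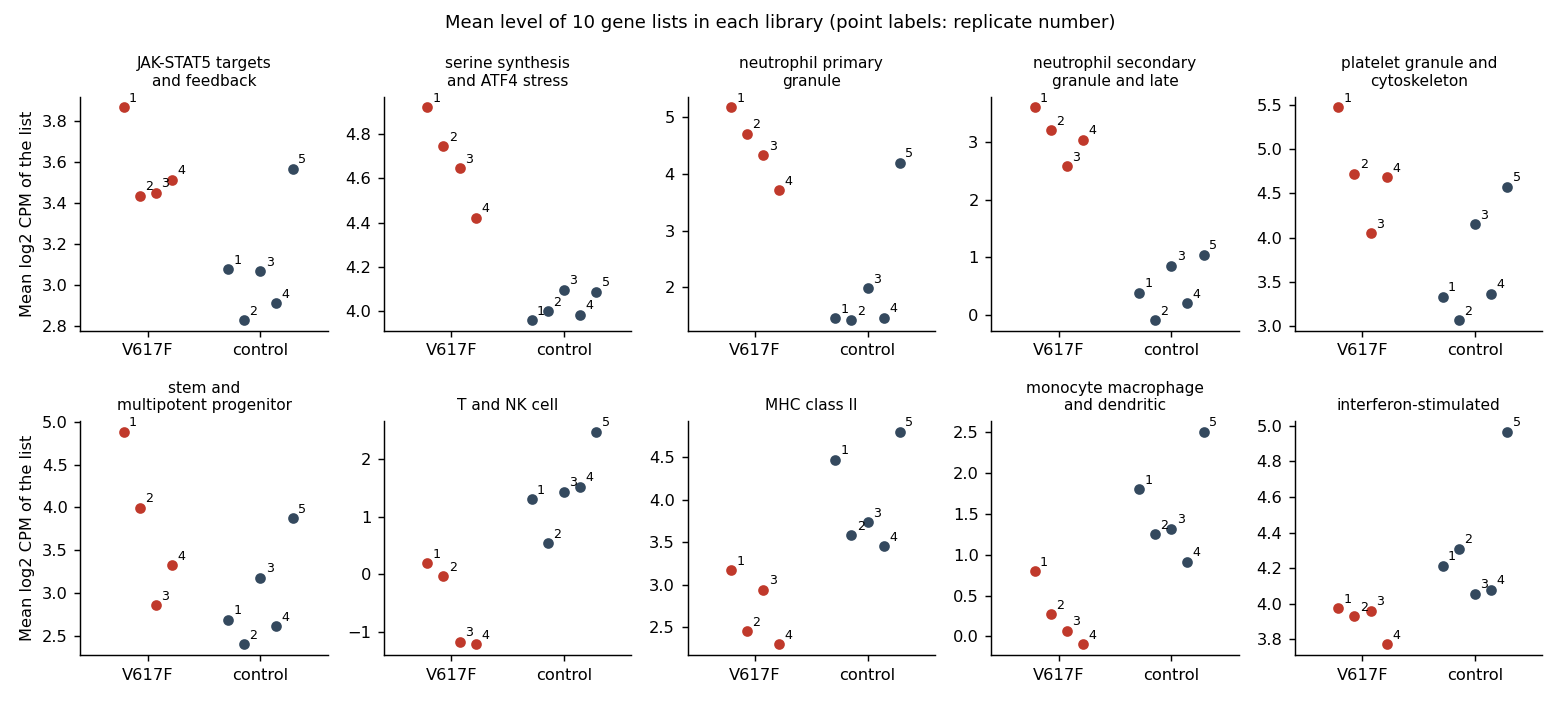
Mean log2 CPM of the tested members of 10 gene lists in each library, V617F (red, left) and control (dark blue, right), with the replicate number beside each point. The groups do not overlap for the serine synthesis and ATF4, secondary granule, T and NK cell, MHC class II, macrophage and interferon lists, and they overlap for the JAK-STAT5, primary granule, platelet granule and stem lists, where control replicate 5 lies within the V617F range.

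Of 34 interferon-stimulated genes 0 were higher and 10 lower, beside 9.73% and 13.9% of all tested genes (median log2 fold change -0.43). Control replicate 5 had the highest mean of the list, and without it 0 were higher and 5 lower. Irf9, the DNA-binding partner of Stat2, had 42.8, 52.8, 64.3 and 55 CPM in V617F libraries and 93.4, 84.4, 74.3, 75.0 and 103 CPM in control libraries (log2 -0.68 ± 0.13, adjusted p = 0.000529). Ly6e, a surface protein that interferon induces, had 353 to 425 CPM in V617F libraries and 472 to 530 CPM in control libraries (log2 -0.35 ± 0.07, adjusted p = 0.00102). Of 21 inflammatory and profibrotic mediators 1 was higher and 4 lower, a share close to the 23.6% of all tested genes that were called. Cxcl10, a chemokine for T and NK cells that interferon induces, had 4.2, 4.98, 8.32 and 9.26 CPM in V617F libraries and 20.2, 19.2, 23.2, 24.3 and 28.4 CPM in control libraries (log2 -1.78 ± 0.34, adjusted p = 0.000609). Tgfb1 and Vegfa, mediators often studied in marrow fibrosis, were not called, with log2 fold changes of -0.18 ± 0.12 and 0.15 ± 0.09. The list member that was higher was Ccn1, a matrix protein. It had 151 counts over the V617F libraries (5 to 71 each) and 15 over the controls (0 to 8 each).

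The same comparison in MEPs that lacked 1 or both Ezh2 alleles used other libraries on both sides. V617F changed 1374 genes in Ezh2 +/- MEPs (9.87% of those tested, 3.35% higher and 6.51% lower) and 5795 in Ezh2 -/- MEPs (41.6%, 19.1% higher and 22.5% lower). Of the 1355 genes higher in Ezh2 +/+, 361 were also higher in Ezh2 +/- (26.6% of the Ezh2 +/+ genes and 77.3% of the Ezh2 +/- genes) and 595 also in Ezh2 -/- (43.9% and 22.3%). Of the 1933 lower genes, 746 were also lower in Ezh2 +/- (38.6% and 82.2%) and 751 in Ezh2 -/- (38.9% and 24%). Genes called in the opposite direction numbered 0 in Ezh2 +/- and 56 and 45 in Ezh2 -/-, for those higher and lower in Ezh2 +/+. The difference between the effects was called for 0 genes between Ezh2 +/- and Ezh2 +/+ by edgeR (937 at an unadjusted p under 0.05, and 13 by DESeq2) and for 2663 genes (19.1%) between Ezh2 -/- and Ezh2 +/+, in the positive direction for 8.47% and in the negative for 10.6%. That last count moved from 297 to 4633 when single libraries were left out, the lowest without Ezh2 -/- replicate 3 and the highest without V617F replicate 1, and it was 128 among female libraries only.

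Podxl, Fam124a and Cpd had a smaller V617F effect in Ezh2 -/- MEPs in every such fit. Podxl averaged 318 ± 46.9 CPM in V617F Ezh2 -/- libraries (SD, n = 6) and 118 ± 29.1 CPM in Ezh2 -/- libraries (SD, n = 4), beside 251 ± 50.8 CPM in V617F Ezh2 +/+ libraries (SD, n = 4) and 15.8 ± 2.98 CPM in control libraries (SD, n = 5). The V617F effect on Podxl was lower by 2.57 ± 0.27 on the log2 scale in Ezh2 -/- than in Ezh2 +/+ (adjusted p = 7.07e-06). For Fam124a the effect was lower by 3.10 ± 0.40 (adjusted p = 0.000188) and for Cpd by 1.79 ± 0.25 (adjusted p = 0.000396). In Ezh2 +/- the effect on Podxl was 4.0002 ± 0.23, close to the 3.99 ± 0.21 in Ezh2 +/+. Erfe rose in all 3 genotypes, with log2 fold changes of 1.604 ± 0.25 in Ezh2 -/-, 2.15 ± 0.26 in Ezh2 +/- and 2.47 ± 0.25 in Ezh2 +/+, and so did Cish, with 2.22 ± 0.23 in Ezh2 -/-, 1.53 ± 0.23 in Ezh2 +/- and 1.41 ± 0.22 in Ezh2 +/+. The difference between Ezh2 -/- and Ezh2 +/+ was not called for either (adjusted p = 0.0657 for Erfe and 0.0562 for Cish). S100a8 rose by 3.73 ± 0.57 in Ezh2 -/- and by 2.99 ± 0.56 in Ezh2 +/-. Cd74 had a V617F effect of 0.28 ± 0.49 in Ezh2 -/-, where it averaged 29.4 ± 17.9 CPM with V617F and 25.7 ± 7.86 CPM without it, and one of -2.52 ± 0.50 in Ezh2 +/-. The difference of Cd74 between Ezh2 -/- and Ezh2 +/+ was 2.83 ± 0.73 (adjusted p = 0.0195), and it was not called among female libraries only (adjusted p = 0.0617).

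**Figure D5:**
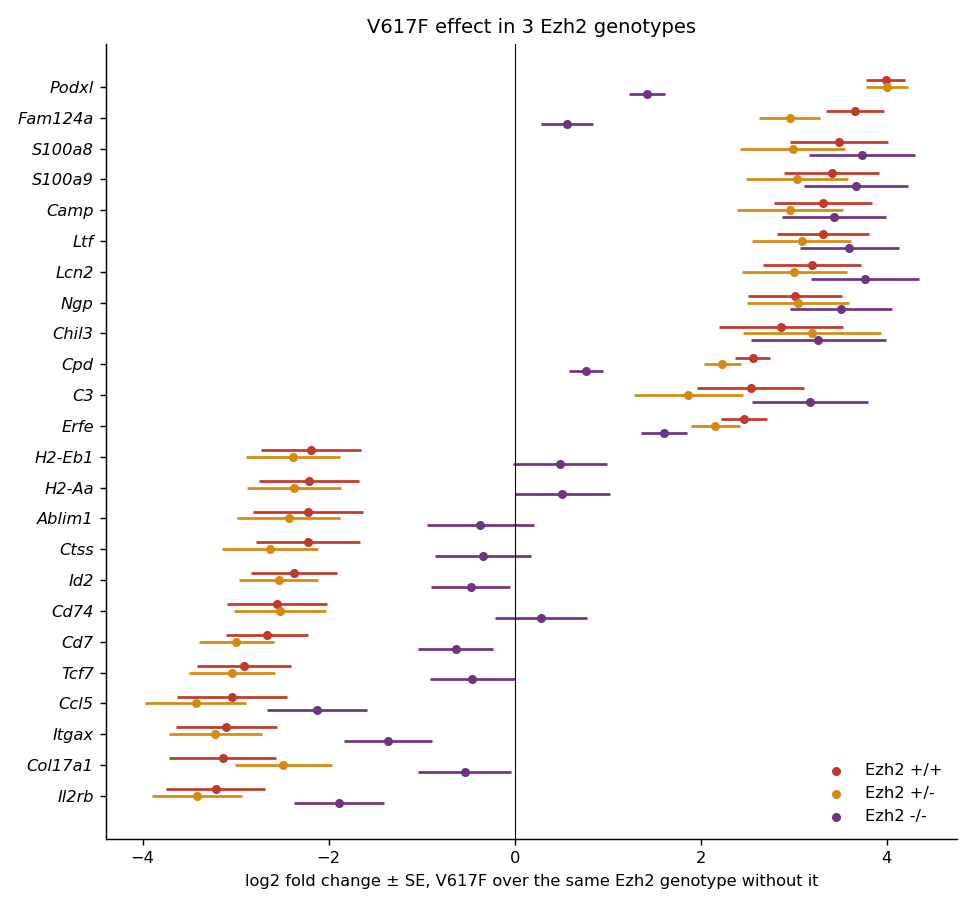
Log2 fold change ± SE of V617F over the same Ezh2 genotype without it, for the 12 largest rises and 12 largest falls in Ezh2 +/+ MEPs, with Ezh2 +/+ in red (n = 4 and 5), Ezh2 +/- in orange (n = 6 and 4) and Ezh2 -/- in purple (n = 6 and 4). Podxl lies at 3.99 in Ezh2 +/+, 4.0002 in Ezh2 +/- and 1.42 in Ezh2 -/-, and S100a8 between 2.99 and 3.73 in all 3; the genes were chosen on the Ezh2 +/+ values.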

How the data were processed

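RNA was measured in sorted mouse MEPs. STAR and genome build mm9 are named in the list of tools per the submitters' processing notes. The sources used here do not give the strand setting, annotation or counting software. The values the authors deposited are whole-number counts per Entrez gene (18834 genes). Symbols came from a RefSeq table (GRCm38.p6), which named 18772 of them, and its coordinates were not applied to the counts. The counts were filtered with filterByExpr (minimum count 10, minimum total 15), scaled by TMM and fitted with edgeR 4.0.16 in R 4.3.3, using quasi-likelihood tests over all 29 libraries with terms for the 6 groups and for sex (22 residual degrees of freedom, biological coefficient of variation 18.1%). The groups share that estimate of the spread. On simulated counts for the main comparison (13928 genes), 72 of 100 genes changed by 1 on the log2 scale and 90 of 100 changed by 2 were recovered. The simulation held no sex effect and no library shifts shared by many genes, so these shares may not hold for the real libraries. RPKM were computed from CPM and the deposited gene length.

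The members, 30 gene lists (668 of 671 entries matched), tests and named genes were chosen with earlier results of these data known. The rule named Jak2, Ezh2, Podxl, Erfe and S100a8; the 12 largest rises and falls whose mean log2 CPM was 2 or more, without overlap, and with a call in every leave-one-out fit and in females; up to 4 members per list and direction with the lowest adjusted p; all JAK-STAT5 members; and 5 interactions per direction. The leave-one-out fits of this rule dropped single V617F or control libraries of Ezh2 +/+ MEPs only. Other genes named were chosen after their values were seen. No 2 libraries of the same group were duplicates (chi-square over degrees of freedom was 4.92 for the closest pair), and pairs from different groups were not compared. Alternatives were RLE scaling, DESeq2 1.42.0, no filter, no sex term, female libraries only, a replicate block, the compared groups only, and libraries left out.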

Additional observations from a re-analysis of the deposited data

Results flagged for a closer look

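Dixon's criterion, which chance meets in about 1 group of 20, was met in 15 of 322 groups of libraries examined (each named gene in each group), 6 times by control replicate 5 and 3 times by V617F replicate 1. V617F replicate 3 stood above its group at 18.9 CPM for Erfe and 34.7 CPM for Irs2. V617F replicate 1 stood above its group at 7.39 CPM for Egr2 and 14.8 CPM for Spry2, and below it at 90.7 CPM for Rfc4. Control replicate 5 stood above its group at 0.595 CPM for Id1, 9.34 CPM for Gadd45g, 42 CPM for Prtn3, 2.15 CPM for Bcl11b and 0.942 CPM for Nupr1, and below it at 17.8 CPM for Ifngr2. Among the other controls, replicate 3 was high for Podxl (21 CPM), replicate 2 high for Alas1 (28.4 CPM), replicate 4 low for Blk (0.322 CPM) and replicate 1 low for Shmt1 (31.4 CPM).

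The V617F effect differed between Ezh2 -/- and Ezh2 +/+ MEPs, by the interaction test, for 21 of the 48 genes whose interaction is reported. Podxl, Fam124a, Cpd, Sdc1, Psph, Dgkz, Kcnab2, Frat2, Zfp36l1 and Arhgap45 were named for a low interaction p, so this count is a description, and these 10 were also the ones called among female libraries only. The other 11 were not (adjusted p = 0.0521 to 0.124), and Ezh2 was called in 15 of 29 fits that left out 1 library. The difference, Ezh2 -/- minus Ezh2 +/+, was -2.57 for Podxl, -3.10 for Fam124a, -1.79 for Cpd, -1.73 for Sdc1, -0.64 for Psph and -0.35 for Ezh2 on the log2 scale. It was 2.60 for Col17a1, 2.45 for Tcf7, 2.03 for Cd7, 2.83 for Cd74, 1.90 for Id2, 2.72 for H2-Aa and 2.68 for H2-Eb1, all genes that fell in Ezh2 +/+. It was 0.28 for Jak2, 1.02 for Pim1, 1.83 for Socs1, 0.66 for Dgkz, 0.46 for Kcnab2, 0.44 for Frat2, 0.68 for Zfp36l1 and 0.74 for Arhgap45.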

How the results depend on the processing

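No named called gene reversed its direction in the alternatives run. Of 154 named genes called, DESeq2 kept 154, RLE scaling 153 and female libraries only 110, and leaving out 1 of the 9 libraries kept 128 to 144. Against 3288 calls in Ezh2 +/+, female libraries only gave 1875 calls (723 higher, 1152 lower). Separate fits gave 2084 without control replicates 3 and 5 (845 and 1239) and 2156 without V617F replicate 1 and control replicate 5 (758 higher). Leaving out 1 of the 9 compared libraries gave 2518 to 3279, and leaving out 1 library of the other Ezh2 genotypes 3154 to 3739. RLE scaling gave 3472 calls and DESeq2 3889. Higher genes made up 47.4% and 48.4% of these calls, against 41.2% in the main fit. After each gene's group mean was subtracted from its log2 CPM, same-numbered V617F and control libraries correlated at -0.15, -0.26, -0.27 and 0.32. The numbers were therefore not taken to pair them. The compared groups alone, without a replicate block, gave 2307 calls (932 higher, 1375 lower). A replicate block gave 3232 calls over all libraries and 3966 in the compared groups alone, where higher genes outnumbered lower ones (2061 and 1905). The interaction with Ezh2 -/- gave 128 calls among female libraries only, 1623 with the replicate block, 157 without control replicates 3 and 5 and 297 to 4633 without single libraries. The interaction with Ezh2 +/- gave 13 calls with DESeq2. In these 2 genotypes all V617F libraries were female and the libraries without V617F included males, so sex was not balanced there. V617F in Ezh2 +/- gave 2170 calls with no sex term, against 1374 with it, and 706 to 1893 without single libraries. In Ezh2 -/- single libraries left out gave 3197 to 6283. The cause was not tested. The depth limits statements on genes near 3 counts, such as Chac1 and Cdkn2a.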

Other observations

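Genes of the NF-kappaB pathway, the transcription factors of inflammatory signalling and their inhibitors, were lower for the most part in V617F MEPs. Of 22 in a list written after values were seen, 0 were higher and 15 lower, beside 9.73% and 13.9% of all tested genes, with a median log2 fold change of -0.55. Of the 15 lower ones, 9 were called whichever library was left out, beside 8.21% of all tested genes. Relb, a subunit of the noncanonical arm, had 3.16, 2.37, 4.85 and 4.49 CPM in V617F libraries and 14.4, 11, 12.8, 10.7 and 17.6 CPM in control libraries (log2 -1.83 ± 0.23, edgeR adjusted p = 6.46e-06). Nfkb2, its partner, had 19.6, 19.3, 27.5 and 24.2 CPM in V617F libraries and 54.5, 45.9, 45.9, 41.4 and 40.3 CPM in control libraries (log2 -0.99 ± 0.11, edgeR adjusted p = 1.29e-06). Neither gene overlapped between the groups. Lymphoid and antigen-presenting cells also express these genes, and the part of those cells in the falls was not tested.

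Of 26 genes of cholesterol synthesis and uptake tested, in a list written after values were seen, 12 were higher and 0 lower, with a median log2 fold change of 0.35. Over all tested genes 9.73% were higher and 13.9% lower. Of the 12 higher ones, 11 were called whichever library was left out, beside 4.24% of all tested genes. Cyp51, an enzyme of the late pathway, had 63.5, 59.2, 48.4 and 59.2 CPM in V617F libraries and 34, 35.8, 41.5, 31.7 and 29.3 CPM in control libraries (log2 0.73 ± 0.11, edgeR adjusted p = 9.7e-05).

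Other genes, chosen after their values were seen, were separated between the groups. C2cd4a had 1077 counts over the 4 V617F libraries and 21 over the 5 control libraries. Plek2, a pleckstrin family protein of red cell precursors, had 7.52, 6.77, 7.73 and 8.14 CPM in V617F libraries and 0.812, 1.86, 1.56, 1.67 and 1.504 CPM in control libraries (log2 2.33 ± 0.20, edgeR adjusted p = 4.25e-08). Malat1, a nuclear noncoding RNA, had 662, 603, 581 and 598 CPM in V617F libraries and 1521, 1251, 1462, 1187 and 978 CPM in control libraries (log2 -1.06 ± 0.15, edgeR adjusted p = 4.42e-05). The 1355 higher genes had a median length of 2802 bases and a median GC content of 47.5%, and the 1933 lower genes 3274 bases and 52.6%, beside 2803 bases and 49.8% over all tested genes. The part of length and GC content in the calls was not tested.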
